A study of Mus musculus with 768 samples.

Results

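The genes described here encode 10 cytokine receptor chains of tumor-infiltrating NK cells, those that bind IL-2, IL-7, IL-12, IL-15, IL-18 and IL-21. They were taken by symbol, Il2ra, Il2rb, Il2rg, Il7r, Il15ra, Il12rb1, Il12rb2, Il18r1, Il18rap and Il21r, and make up 10 of 24490 gene entries. NK cells were sorted one by one from MTAP1A tumors, a clone of a fibrosarcoma that lacks the peptide transporter gene Tap1 and was grown in C57BL/6 mice. One group came from wild-type (WT) hosts and the other from hosts of the same strain that lack PD-1 in all cells (PD-1-/-). Each group was the pooled tumors of 3 mice on its own plate, read by SMART-SEQ2, which sequences full-length transcripts of single cells without molecular identifiers. The gate took viable NK1.1+ cells negative for CD3 and Gr1, among other markers, so the sorted cells can hold other innate lymphoid cells with NK1.1. The mouse that a cell came from is unknown, each genotype is 1 pooled sample, and genotype and plate cannot be told apart. No test between genotypes was therefore made, and all intervals cover counting error only.

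Cytokine receptors of this group work as sets of chains. Il2rg encodes the common gamma chain, shared by the receptors for IL-2, IL-7, IL-15 and IL-21. With the beta chain from Il2rb it forms the signaling pair for IL-2 and IL-15, and the alpha chains from Il2ra and Il15ra add affinity or present the cytokine. Il7r and Il21r encode the private chains for their own cytokines. The IL-12 receptor joins the chains of Il12rb1 and Il12rb2, and the IL-18 receptor the binding chain of Il18r1 and the accessory chain of Il18rap. In NK cells IL-15 is known for survival, and IL-12 with IL-18 for the induction of interferon gamma.

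The number of detected genes, out of 14761 that occurred in 3 wells or more, had to lie between 1000 and 3500 for a well to be used. This left 726 cells, 360 of them WT and the others PD-1-/-, while the labels speak of 382 sorted NK cells. Kept cells had a median of 2264.5 detected genes in WT and 2262.5 in PD-1-/-, and a median of 321434 and 340851 reads on genes, recovered from the deposited values. Reads per kept cell went from 1460 to 491690 in WT and from 1851 to 566771 in PD-1-/-. Every kept cell had at least 1 of 8 NK markers, whose shares ran from 61.9% (Eomes) to 100% in WT and from 55.2% to 99.7% in PD-1-/-. CD3 transcripts (Cd3d, Cd3e or Cd3g) were present in 65 WT and 83 PD-1-/- cells, although the gate excluded surface CD3. At least 1 gene of a T cell list was present in 22.2% of cells in WT and 26.8% in PD-1-/-, while the B cell and neutrophil lists reached 1.94% at most. A list of ILC1 genes (Cxcr6, Itga1 and Tnfsf10) reached 25.3% and 40.98%, the ILC2 list 43.6% and 44.8%, nearly all through Gata3, and the dendritic list 65.6% and 62.6%, mostly through Itgax; NK cells can also express Gata3 and Itgax. The myeloid list was present in 13.1% and 7.10%, the Treg list in 8.33% and 10.4%, the fibrosarcoma list in 5.83% and 3.01%, and the cell cycle list in 19.2% and 25.96%. Pdcd1, of which the study describes a partial deletion in PD-1-/- mice with transcripts still detected, was present in 2.50% of cells in WT and 12.8% in PD-1-/-. Its mean was 14.4 RPKM in WT and 13.9 RPKM in PD-1-/-. RPKM of the whole gene cannot show a deleted exon and check nothing, so the genotypes are those on the labels of the plates. The first rows of the WT plate, A and B, stood apart from rows C to P, with CD3 transcripts in 52.6% of 38 cells against 13.98% of the cells of rows C to P, and results that rest on them are given with and without them.

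A transcript was counted as present at a value above 0 RPKM. This unit scales reads by gene length and by the mapped reads of each cell, so levels of different genes can be compared. By the share of cells the 10 genes fell into 3 ranges on both plates. Il2rb and Il2rg were present in nearly every cell, Il18rap, Il18r1 and Il12rb2 in 45.1% to 77.2%, and Il12rb1, Il21r, Il7r, Il15ra and Il2ra in 6.28% to 27.9%. In the order of the shares, Il2rb and Il2rg had overlapping intervals in each genotype, as did Il18r1 and Il12rb2. Il12rb1 lay below both and above Il21r with intervals apart in each genotype. The intervals of Il7r, Il15ra and Il2ra overlapped in each genotype.

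**Figure D1:**
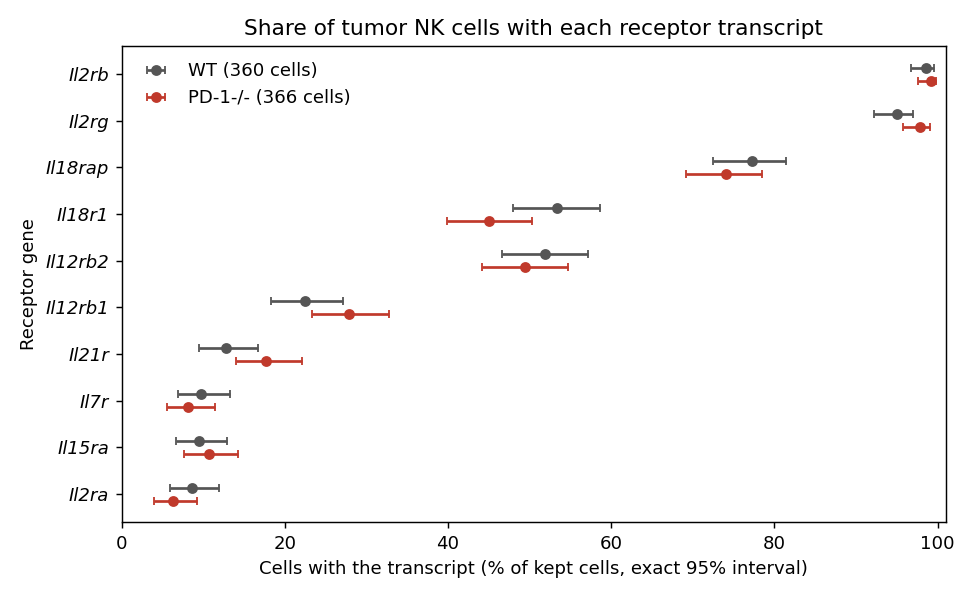
Share of kept cells with each receptor transcript (x axis, % of the kept cells of a genotype) for the 10 genes (y axis), with exact 95% intervals as bars. Il2rb and Il2rg lay at 95% to 99.2%, and for each of the 10 genes the intervals of WT and PD-1-/- overlapped.

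The share of cells differed between genotypes by at most 8.25 percentage points. For none of the 10 genes were the intervals apart, which they were for 1.32% of the 8266 genes present in 5% or more of each genotype's cells. The share was higher in PD-1-/- for 5 of the 10 genes, against 49% of those 8266 genes. The mean RPKM over all kept cells was higher in PD-1-/- for 7 of the 10, against 47.6% of the 12030 genes whose mean reached 1 RPKM. No receptor gene differed by 2-fold or more in mean RPKM, while 12.1% of those 12030 genes did. The log2 ratio of PD-1-/- to WT, taken on mean RPKM plus 1, had a median of 0.09 over the 10 genes, beside -0.03 over all 12030. It ran from -0.40 for Il18r1 to 0.69 for Il15ra. Differences of the share that are smaller than the intervals were not detectable with these numbers of cells.

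The signaling pair for IL-2 and IL-15 was the most abundant. Il2rb, on chromosome 15, was present in 98.6% of the WT cells (95% interval 96.8 to 99.5) and 99.2% of the PD-1-/- cells (97.6 to 99.8). Over all kept cells its RPKM ran from 0 to 5680 in WT, with a median of 1849, and from 0 to 6756 in PD-1-/-, with a median of 1960. The ranges overlapped over nearly their whole length, and the mean was 1952 RPKM in WT and 2093 RPKM in PD-1-/- (log2 ratio 0.10). All 5 WT cells without Il2rb had fewer than 100000 recovered reads, with a median of 1603, against a median of 322821 in the cells with it. Of the 3 PD-1-/- cells without it, 2 had fewer than 100000 reads. Another 19 WT and 12 PD-1-/- cells of that low depth did have Il2rb.

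Il2rg, the common gamma chain on the X chromosome, was present in 95% of the WT cells (92.2 to 97.01) and 97.8% of the PD-1-/- cells (95.7 to 99.1). Its RPKM over all kept cells ran from 0 to 6316 in WT, with a median of 1355, and from 0 to 5197 in PD-1-/-, with a median of 1541. The means were 1471 RPKM and 1546 RPKM (log2 ratio 0.07). Of the cells without Il2rg, 5 of 18 in WT and 2 of 8 in PD-1-/- had fewer than 100000 reads. These cells had a median of 1917 detected genes in WT and 1561 in PD-1-/-, against 2269.5 and 2274 in cells with it. Exons of Il2rg overlap those of Gm20489 in the GENCODE vM21 annotation, and without strand in the reads their values cannot be told apart.

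Both chains of this pair were present together in 94.7% of the WT cells (91.9 to 96.8) and 97.5% of the PD-1-/- cells (95.4 to 98.9). The shares of the single chains, multiplied, would give 93.7% and 97.01%, so that the observed share was 1.01 times the product in each genotype. With shares this high the ratio could not exceed 1.01 on either plate. Over cells, the log2(RPKM + 1) values of Il2rb and Il2rg had a Pearson correlation of 0.34 in WT and 0.23 in PD-1-/-, which ranked Il2rg 48th and 52nd of 8265 genes by likeness to Il2rb. Cells of a plate share its library pool, and each cell's depth and quality enter both values.

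The alpha chains were rare. Il2ra, which encodes CD25 and lies on chromosome 2, was present in 31 WT cells (8.61%, 5.93 to 12) and 23 PD-1-/- cells (6.28%, 4.02 to 9.28). In the cells with it, the RPKM ran from 1.13 over a median of 59.3 to 310.6 in WT, and from 3.74 over 86.8 to 326.2 in PD-1-/-. These levels lay far under those of Il2rb. Over all kept cells the mean was 7.96 RPKM in WT and 5.94 RPKM in PD-1-/- (log2 ratio -0.37). Without plate rows A and B the direction turned, with a log2 ratio of 0.26, and those rows held 13 of the 31 WT cells with Il2ra.

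In rows A and B of the WT plate, 13 of 38 cells had Il2ra (34.2%, 19.6 to 51.4), against 18 cells, or 5.59% (3.35 to 8.69), in rows C to P. These intervals were apart, as were those of 1.75% of the 8266 genes on this plate, and no other receptor gene had intervals apart between these rows. Row A alone had 9 of 17 cells with Il2ra, and no other row of this plate kept so few cells. On the PD-1-/- plate the same rows had 3 of 45 cells with it (6.67%), beside 6.23% in rows C to P, and no receptor gene had intervals apart there, against 0.52% of the 8266. The WT cells of rows A and B had a gene of the T cell list in 63.2% of cells, against 17.4% in rows C to P. Other lists were also present more often in rows A and B, the Treg list in 21.1% against 6.83% of cells, the ILC1 list in 60.5% against 21.1% and the ILC2 list in 60.5% against 41.6%. CD25 is also known from Treg cells and ILC2. Among those without CD3 transcripts, 6 of 18 cells in rows A and B had Il2ra (33.3%, 13.3 to 59.01), against 13 cells, or 4.69% (2.52 to 7.89), in rows C to P. Of the cells with CD3 transcripts in rows A and B, 7 of 20 had Il2ra (35%, 15.4 to 59.2). Both shares in these rows rest on few cells, and the part of cells that carried CD3 transcripts was not tested. At least 1 of the 8 NK markers was present in every cell of these rows, as in every kept cell. This was fixed in advance, since Fcer1g, 1 of the 8, was present in 100% of WT cells, and it tells nothing about these rows. The median summed level of these markers was 13035 RPKM against 17992 RPKM in rows C to P. The part of the Treg, ILC1 and ILC2 lists in the result was not tested.

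**Figure D2:**
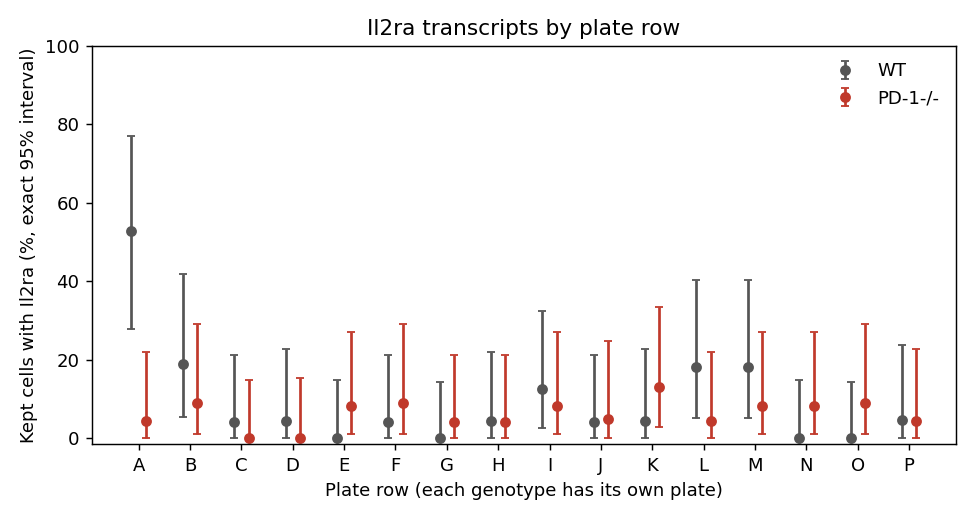
Share of kept cells with Il2ra (y axis, %, with exact 95% intervals) in each of the 16 plate rows (x axis) of the WT and the PD-1-/- plate. Row A of the WT plate stood highest at 52.9% (27.8 to 77.02), while the other 15 WT rows lay between 0% and 19.05% and the PD-1-/- rows between 0% and 13.04%.

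Il15ra, the chain that binds IL-15 with high affinity and presents it to the signaling pair, was present in 34 WT cells (9.44%, 6.63 to 12.9) and 39 PD-1-/- cells (10.7%, 7.69 to 14.3). In cells with the transcript the RPKM ran from 1.69 over a median of 165.5 to 623 in WT and from 1.64 over 248.7 to 1176 in PD-1-/-. The mean over all cells, 19.6 RPKM in WT and 32.1 RPKM in PD-1-/-, gave the largest log2 ratio of the 10 genes, 0.69, without reaching 2-fold. The ratio was 0.66 in plate rows A to H and 0.72 in the rows from I on, but these are parts of the same pools and no replicates. The genotypes were nearer in the share of cells than in the level of the cells with Il15ra, and the ranges of that level overlapped. The highest PD-1-/- cells, at 1176, 1105 and 1051 RPKM in rows G, J and D, lay above all WT cells. They weigh on the mean, and the ratio without them was not taken. No WT cell of rows A and B had Il15ra, which in 38 cells allows a share of up to 7.89%. The values of Il15ra were no multiples of what 1 read is worth, unlike those of 8 other receptor genes.

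**Figure D3:**
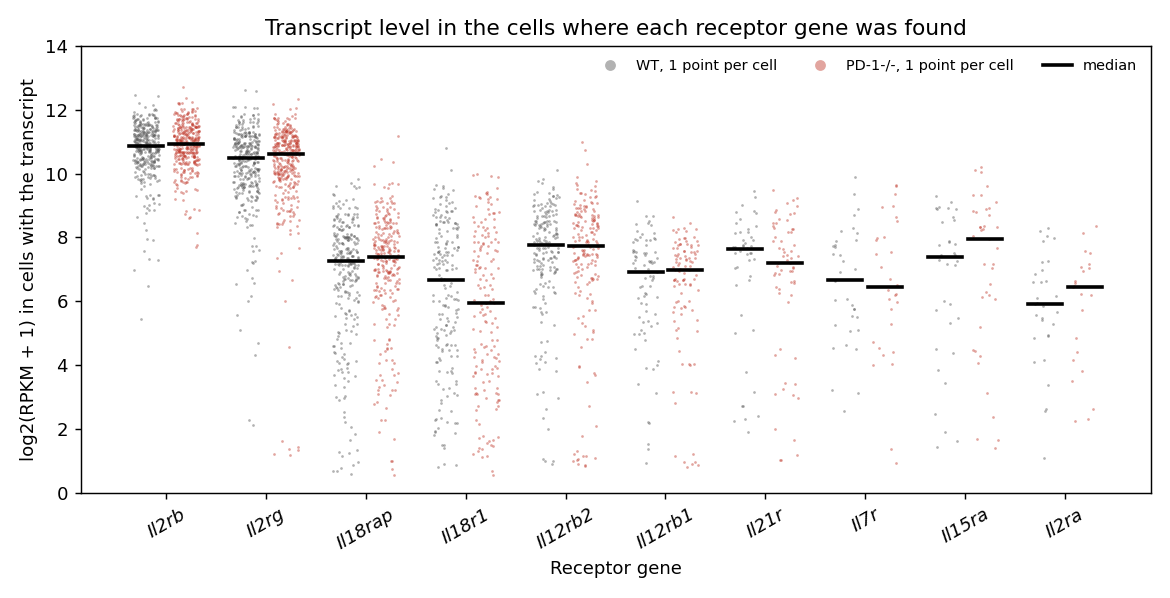
Level of each receptor gene as log2(RPKM + 1) (y axis) in the cells where it was present, with 1 point per cell, WT and PD-1-/- side by side and the median as a black bar. The medians of Il2rb and Il2rg lay above those of the other 8 genes, whose highest median over both plates was the 248.7 RPKM of Il15ra. The Il15ra values were no multiples of what 1 read is worth, so its place among the 8 is unsure.

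The full set for high-affinity IL-2, Il2ra with Il2rb and Il2rg, was present in 29 WT cells (8.06%) and 23 PD-1-/- cells (6.28%). The IL-15 set, Il15ra with the same pair, was present in 34 WT cells (9.44%) and 39 PD-1-/- cells (10.7%). Every cell with Il15ra had both Il2rb and Il2rg, in each genotype. Of the cells with Il2ra, 96.8% had Il2rb and 93.5% had Il2rg in WT, and all 23 had both in PD-1-/-. Of the cells without Il15ra, 98.5% in WT and 99.1% in PD-1-/- had Il2rb, and 94.5% and 97.6% had Il2rg.

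Il7r, the alpha chain of the IL-7 receptor and a marker of innate lymphoid and T cells, lies on chromosome 15. It was present in 35 WT cells (9.72%, 6.87 to 13.3) and 30 PD-1-/- cells (8.20%, 5.60 to 11.5). Cells with it had 4.89 to 945 RPKM in WT, with a median of 101.4, and 0.917 to 790 RPKM in PD-1-/-, with a median of 85.7. The means over all cells were nearly equal at 16.7 and 16.4 RPKM (log2 ratio -0.03). Among cells without CD3 transcripts the means were 8.53 RPKM in WT and 12.3 RPKM in PD-1-/- (log2 ratio 0.48). They rest on 22 WT and 17 PD-1-/- cells with Il7r, and the share went the other way, at 7.46% and 6.01%. Il7r was present together with Il2rg, its signaling partner, in 32 WT and 29 PD-1-/- cells.

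Il21r, the private chain for IL-21 on chromosome 7, was present in 46 WT cells (12.8%, 9.51 to 16.7) and 65 PD-1-/- cells (17.8%, 13.98 to 22.1). Cells with it had 2.77 to 703 RPKM in WT, with a median of 196.5, and 1.02 to 717 RPKM in PD-1-/-, with a median of 145.9. The larger mean in PD-1-/-, 34.8 against 26.5 RPKM (log2 ratio 0.38), came with a higher share and a lower median among cells with it. Cells of each genotype were put into 3 groups of equal size by their number of detected genes. The share with Il21r climbed from 3.33% in the lowest group of WT cells to 20.8% in the highest and from 4.92% to 31.97% in PD-1-/-. Il21r and Il2rg were present together in 45 WT and in all 65 PD-1-/- cells with Il21r, and Il7r and Il21r together in 4 and 3 cells.

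The chains of the IL-12 receptor differed in how many cells had them. Il12rb2, the signaling chain on chromosome 6, was present in 51.9% of the WT cells (46.6 to 57.2) and 49.5% of the PD-1-/- cells (44.2 to 54.7). Il12rb1, the chain shared with the IL-23 receptor, on chromosome 8, was present in 22.5% (18.3 to 27.2) and 27.9% (23.3 to 32.8). In cells with the transcript, Il12rb2 ran from 0.884 over a median of 217.6 to 1116 RPKM in WT and from 0.788 over 211.5 to 2037 RPKM in PD-1-/-. Il12rb1 ran from 0.909 over 120.9 to 557 RPKM in WT and from 0.754 over 125.8 to 395 RPKM in PD-1-/-. For both genes the ranges of the genotypes overlapped, with log2 ratios of the mean of 0.04 for Il12rb2 and 0.20 for Il12rb1. Exons of Il12rb2 overlap those of Serbp1 in GENCODE vM21, and Serbp1 was present in 90.3% of cells in WT and 89.9% in PD-1-/-. Over cells the levels of Il12rb2 and Serbp1 had a correlation of 0.03 in WT and -0.05 in PD-1-/-.

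Both IL-12 receptor chains were present in the same cell in 42 WT cells (11.7%, 8.54 to 15.4) and 49 PD-1-/- cells (13.4%, 10.1 to 17.3). The product of the shares would give 42.08 and 50.44 cells, so the ratios were 0.998 and 0.971. The intervals of the share with both, divided by the product, held 1 in each genotype. Il12rb2 was present in 51.9% of the WT cells with Il12rb1 and in 51.97% of those without it, and in PD-1-/- in 48.04% and 50%. In comparison, 58.5% of 8265 genes were present with Il12rb1 more often than the product gives in both genotypes. Cells with Il12rb2 but no Il12rb1 were 40.3% in WT and 36.1% in PD-1-/-, and cells with neither were 37.2% and 36.1%. The share of cells with Il12rb1 moved with the number of detected genes, at 8.33%, 17.5% and 41.7% in the lowest, middle and highest group of WT cells and 15.6%, 31.97% and 36.1% in PD-1-/-. For Il12rb2 the groups lay closer, between 46.7% and 55.8% in WT and between 45.9% and 54.9% in PD-1-/-. Taken within these groups, the cells with both chains were 0.96 times the product in each genotype.

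The genes of the IL-18 receptor lie on chromosome 1. Il18rap, the accessory chain, was present in 77.2% of the WT cells (72.5 to 81.5) and 74.04% of the PD-1-/- cells (69.2 to 78.5). In cells with it the RPKM ran from 0.511 over a median of 151.02 to 913 in WT and from 0.467 over 164.6 to 2291 in PD-1-/-. Its mean over all cells was 143.99 RPKM in WT and 164.5 RPKM in PD-1-/- (log2 ratio 0.19). The direction held in plate rows A to H (0.42) and not in the rows from I on (-0.05).

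Il18r1, the chain that binds IL-18, was present in 53.3% of the WT cells (48.03 to 58.6) and 45.1% of the PD-1-/- cells (39.9 to 50.3). This difference of 8.25 percentage points was the largest of the 10 genes, and the intervals overlapped. Cells with Il18r1 had 0.753 to 1764 RPKM in WT, with a median of 100.7, and 0.478 to 1016 RPKM in PD-1-/-, with a median of 60.2. The mean over all cells was 99.2 RPKM in WT and 74.8 RPKM in PD-1-/- (log2 ratio -0.40), lower in PD-1-/- in plate rows A to H (-0.56) and I to P (-0.26). Both sets of rows belong to the same pools and are no replicates. Of the Il18r1 values 55.2% were whole reads.

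Both IL-18 receptor chains were present together in 43.6% of the WT cells (38.4 to 48.9) and 35.2% of the PD-1-/- cells (30.4 to 40.4). The ratio to the product of the shares was 1.06 in each genotype. The intervals of the share with both, divided by the product, held 1 but leave out the error of the single shares. Within the groups of detected genes the ratios were 1.06 and 1.05, with no interval taken. Of 8265 genes, 27% exceeded the product with Il18r1 in both genotypes. Il18rap was present in 81.8% of the WT cells with Il18r1 (75.6 to 86.96) and in 72.02% without it (64.6 to 78.7), and in PD-1-/- in 78.2% and 70.6%. By correlation of levels Il18rap ranked 14th of 8265 genes in likeness to Il18r1 in WT (r = 0.15) and 579th in PD-1-/- (r = 0.08). Neither chain was present in 47 WT cells (13.1%) and 59 PD-1-/- cells (16.1%). All 4 chains for IL-12 and IL-18 were present together in 16 WT cells (4.44%) and 20 PD-1-/- cells (5.46%).

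**Figure D4:**
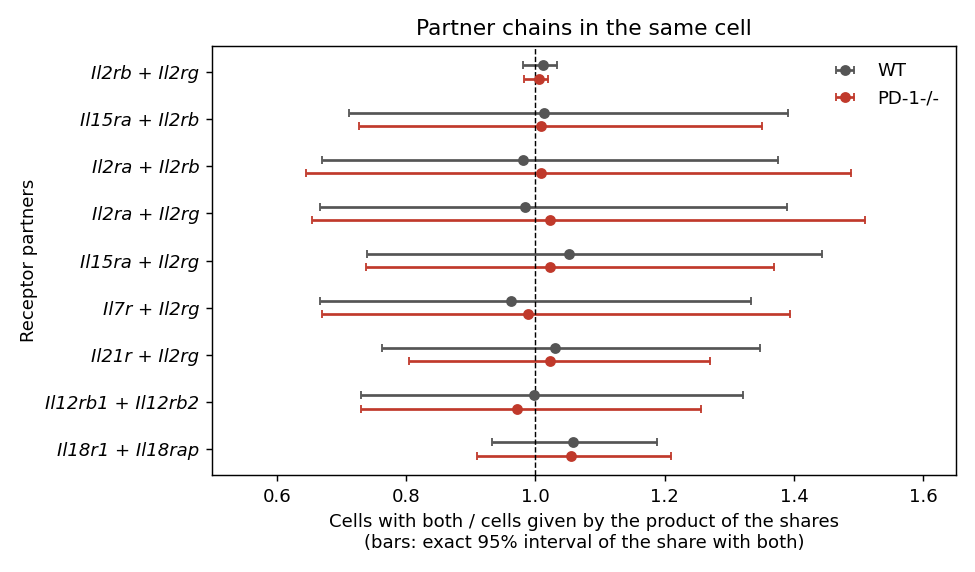
Number of cells with both partner chains divided by the number that the product of their shares gives (x axis) for 9 pairs (y axis) in WT and PD-1-/-, with bars for the exact 95% interval of the share with both. Every interval includes 1, and the ratios lay between 0.962 and 1.06. The bars take the product as fixed and are not intervals of the ratio itself. For pairs with Il2rb or Il2rg they pass the highest ratio that the shares allow, so those bars could not lie wholly above 1.

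Of the 9 partner pairs, 5 were present together more often than the product of their shares in both genotypes: Il2rb with Il2rg, Il15ra with Il2rb and with Il2rg, Il21r with Il2rg, and Il18r1 with Il18rap. The shares of Il2rb and Il2rg left little room above the product, a highest possible ratio of 1.01 for pairs with Il2rb and of 1.05 in WT and 1.02 in PD-1-/- for the other pairs with Il2rg. Both Il15ra pairs stood at that highest ratio, as did Il21r with Il2rg in PD-1-/-, and only Il18r1 with Il18rap among the 5 had more room, up to 1.29 and 1.35. The other 4, Il2ra with Il2rb and with Il2rg, Il7r with Il2rg, and Il12rb1 with Il12rb2, lay below it in at least 1 genotype. Over 8265 genes, 58.7% exceeded the product with Il2rb in both genotypes, 29.4% with Il15ra, 44.5% with Il2ra, 22.8% with Il7r and 56.3% with Il21r. A cell had a median of 4 of the 10 receptor transcripts in each genotype, with a range of 0 to 9 in WT and 0 to 8 in PD-1-/-. Cells with 3 to 6 of them made up 91.1% of cells in WT and 91.5% in PD-1-/-, and no cell had all 10.

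Cells with CD3 transcripts were set beside those without. Il7r, Il21r, Il2ra and Il12rb1 were present in a larger share of the cells with CD3 transcripts in both genotypes, 4 of the 10 genes against 30.9% of the 8266 genes. Il7r was present in 20% (11.1 to 31.8) of the 65 WT cells with CD3 transcripts and in 7.46% (4.73 to 11.07) of those without. In PD-1-/- it was present in 15.7% (8.61 to 25.3) of 83 cells and in 6.01% (3.54 to 9.44) of those without. The WT intervals were apart, as for 0.786% of genes in this direction, while those of PD-1-/- overlapped, where 0.593% of genes had them apart. In rows C to P the shares of Il7r were 22.2% and 6.50% in WT and 16.2% and 5.67% in PD-1-/-.

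Il21r was present in 18.5% of the WT cells with CD3 transcripts against 11.5% without, and in 27.7% against 14.8% in PD-1-/-, with overlapping intervals. Il2ra was present in 18.5% against 6.44% in WT, with intervals apart, and in 7.23% against 6.01% in PD-1-/-. In rows C to P of the WT plate its intervals overlapped, at 11.1% (3.71 to 24.1) and 4.69% (2.52 to 7.89). Il12rb1 was nearly level in WT, at 23.1% and 22.4%. The IL-18 receptor chains, Il12rb2 and Il15ra were present in a smaller share of the cells with CD3 transcripts in both genotypes, 4 of 10 genes against 21.8% of the 8266, and their intervals overlapped. Il18r1, for example, had 40% against 56.3% in WT and 39.8% against 46.6% in PD-1-/-.

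Among cells without CD3 transcripts, Il7r was the receptor gene that stood apart by Cxcr6, a chemokine receptor of tissue-resident lymphocytes. Of WT cells, 6 of 10 with Cxcr6 had Il7r (60%, 26.2 to 87.8) and 16 without, or 5.61% (3.24 to 8.96). Of PD-1-/- cells, 10 of 44 with Cxcr6 had it (22.7%, 11.5 to 37.8) and 7 without, or 2.93% (1.19 to 5.94). The intervals were apart in each genotype, as they were in this direction for 0.157% of the 8266 genes, and Il7r was the only one of the 10 receptor genes for which this held. In rows C to P the shares were 66.7% and 4.48% in WT and 23.8% and 1.95% in PD-1-/-. Cells with and without Cxcr6 had like numbers of detected genes, with a median of 2249 and 2261 in WT and 2282.5 and 2232 in PD-1-/-. Their median reads were 311380 and 325333 in WT and 368866 and 339054 in PD-1-/-. Between the genotypes the intervals of Il7r in cells with Cxcr6 overlapped, and the WT value rests on 10 cells. Il21r was present in 30% of cells with Cxcr6 in WT and 20.5% in PD-1-/-, and in 10.9% and 13.8% without it, with overlapping intervals.

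**Figure D5:**
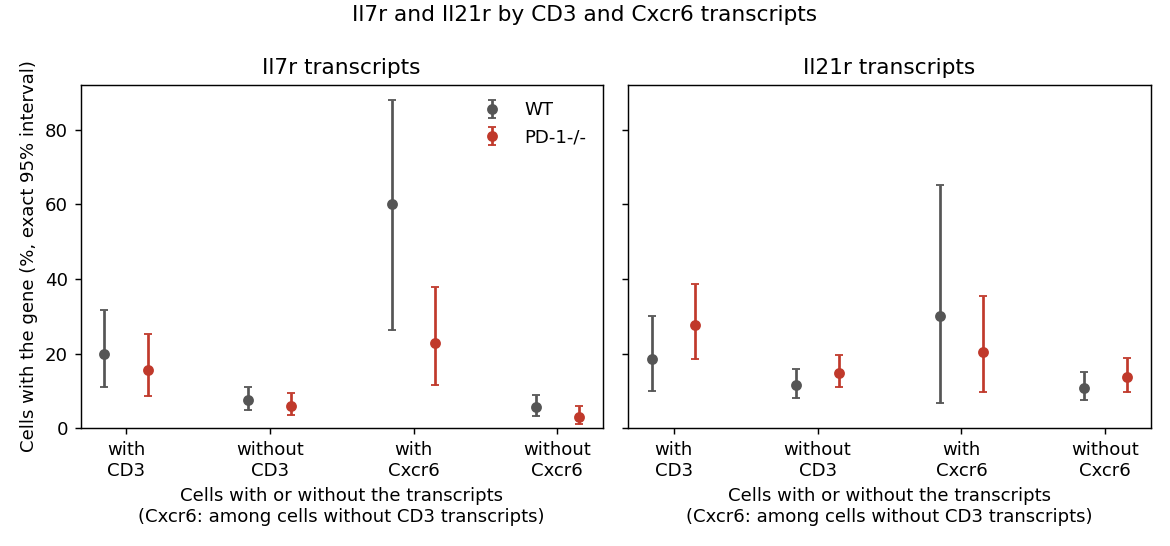
Share of cells with Il7r (left) and Il21r (right) (y axes, %, with exact 95% intervals) in cells with and without CD3 transcripts and, among cells without CD3 transcripts, with and without Cxcr6, for WT and PD-1-/-. Il7r stood highest in cells with Cxcr6, at 60% in WT and 22.7% in PD-1-/-, and the Il21r intervals overlapped within each genotype.

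Cells with and without Ifng, the transcript of interferon gamma, had overlapping intervals for the chains of the IL-12 and IL-18 receptors. Among cells without CD3 transcripts, Il12rb2 was present in 51.4% of the 74 WT cells with Ifng and 54.8% of those without, and in PD-1-/- in 48.9% of 90 cells and 53.4%. Il18r1 was present in 51.4% against 57.9% in WT and 50% against 45.1% in PD-1-/-, so the direction differed between plates. Il15ra was present in fewer cells with Ifng, 2.70% against 11.8% in WT and 6.67% against 13.5% in PD-1-/-. For all 10 genes the intervals of cells with and without Ifng overlapped in both genotypes. Since only 0.714% of the 8266 genes had them apart in either genotype, this is near the background. Overlap does not show that the shares were alike.

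S1pr5, a receptor of circulating mature NK cells, was used to divide the same cells without CD3 transcripts. The intervals overlapped for all 10 receptor genes in each genotype. Since only 2.3% of the 8266 genes had them apart in either genotype, this is near the background. Il21r was present in 7.59% of the 79 PD-1-/- cells with S1pr5 and 17.6% of those without, and in WT in 10.1% of 69 cells and 11.9%. Cells with at least 2 of 5 cell cycle genes were few, 7 in WT and 17 in PD-1-/-. None of these had Il15ra, which allows a share of up to 42.9% and 17.6%. Il2rb was present in 5 of the 7 WT cells (71.4%) against 99.3% of the others, with intervals apart as for 0.194% of the 8266 genes, and in 16 of the 17 in PD-1-/-, with overlapping intervals. Both WT cells with cell cycle genes that lacked Il2rb had fewer than 100000 recovered reads. All 5 WT cells without Il2rb, counted over all kept cells, lay under that depth. Leaving out such cells, a choice made after seeing the data, had to give Il2rb in every WT cell left. The part of depth in the difference was thus not tested. Il2rb was then present in all 5 WT cells left with cell cycle genes and in every one without them. In PD-1-/- it was then present in all 15 cells with cell cycle genes and 99.6% of the others.

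For each receptor gene the genes most like it were ranked by the lower of the 2 within-plate correlations of log2(RPKM + 1), over the 726 cells and 8265 genes. Il2rb was closest to Selplg, with r of 0.47 in WT and 0.45 in PD-1-/-, Laptm5 (0.45 and 0.58) and AW112010 (0.41 and 0.42). Il2rg was closest to Rpl3 (0.30 and 0.28), Tmsb10 and Rplp2, and Il7r to Cd3g (0.33 and 0.25), Cd3e and Cd3d. Il2ra was closest to Gzmc, a granzyme gene (0.26 and 0.29), Ly6a and Mnda, and Il21r to Amica1 (0.20 and 0.21), Bcl2a1d and Klk8. The lower r of the closest gene was at most 0.17 for Il12rb1, Il12rb2, Il15ra, Il18r1 and Il18rap. Values this low in sparse data describe these cells and name no pattern.

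Among the genes that carry the signal of these receptors, none of 11 kinases and STATs differed by 2-fold in mean RPKM, with a median log2 ratio of -0.01 and a range of -0.33 to 0.31. Jak1, the kinase bound by Il2rb and by the private chains, was present in 90.8% of cells in WT and 90.2% in PD-1-/-. Jak3, the partner of the common gamma chain, was present in 46.9% and 55.5%, and Stat4, which IL-12 activates, in 80.8% and 74.3%. Of 7 brakes none passed 2-fold, with a median of 0.20. Cish, a target of STAT5 that limits IL-15 signaling, had the highest ratio, with means of 54.96 RPKM in WT and 85.5 RPKM in PD-1-/- (log2 ratio 0.63), and was present in 20.3% and 24.3% of cells. Of 5 genes of IL-18 signaling none passed 2-fold, with a median of -0.19. Since 12.1% of the 12030 genes passed 2-fold, a count of 0 in lists this short is near the background.

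Among 17 other cytokine receptors, 13 had a mean of 1 RPKM or more in a genotype, and 2 of them lay lower by 2-fold or more in PD-1-/-. Il6ra was present in 2.22% of the WT cells and listed at 0 in all PD-1-/- cells, and Ifngr2 was present in 1.94% and 0.273%. None lay higher by 2-fold. Over the 12030 genes, 7.34% lay lower and 4.71% higher by 2-fold or more, and both genes past it here were rare transcripts. Transcripts of the ligands were rare in the sorted cells. Il2, Il7, Il12a, Il12b, Il15 and Il18 were each present in at most 2.78% of the cells of a genotype, and Il21 in none of 726 cells. Of these, Il2 and Il12a lay higher and Il12b lower by 2-fold or more in PD-1-/-, each on at most 3 cells per genotype.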

How the data were processed

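The authors made SMART-SEQ2 libraries of single sorted NK cells and deposited RPKM per gene entry and well. The submitters' processing notes name TopHat, Cufflinks, mm9 and mm10, with no role given, so no coordinates are printed. Chromosomes are those of RefSeq GRCm38.p6, which listed all 10 genes. Wells were grouped by the genotype in the labels, and RPKM were used without further scaling. The study removed outlier cells by library size and expressed genes without stating limits. The limits on detected genes were set for this work, its library size and apoptotic gene filters were not applied, and doublets were not called.

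Whole reads were recovered from the equal spacing of low values for 10350 genes. Of 719226 values under 60 reads, 97.7% were whole (relative tolerance 0.0003). Reads served for depth and thinning only, since 1 pooled sample per genotype allows no count test. Depth was under 100000 recovered reads in 24 kept cells of the WT plate and in 14 of the PD-1-/- plate. The recovery was tested on simulated data.

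Shares carry exact Clopper-Pearson 95% intervals, and a share of 0 carries the limit that 3 cells would give. PCR reads without molecular identifiers are not independent molecules. A pseudocount of 1 RPKM understates the fold of low genes. Python 3.11.15, numpy 2.4.6, pandas 2.3.3, scipy 1.17.1 and matplotlib 3.10.9 were used.

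The receptor genes, the pathway and marker lists and the cell states were chosen with earlier results of these data known. Named were all 10 receptor genes, kinases, STATs, brakes and ligands of the pathway list, any list gene past 2-fold, and the 3 genes most like each receptor gene. Alternatives changed the filter on wells, the RPKM that counts as present, the plate rows and cells used, the depth, the pseudocount, the scaling of cells, the grouping by detected genes, and the number of CD3 genes required.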

Additional observations from a re-analysis of the deposited data

Results flagged for a closer look

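Receptor transcripts were also present in the wells left out of the comparisons. Il2rb was found in 8 of 12 wells with fewer than 1000 detected genes (66.7%, 34.9 to 90.1) and in 30 of 30 wells with more than 3500 (100%, 88.4 to 100). They are given because these wells enter no comparison; a transcript present in nearly every kept cell would pass the limit of a count of 0 in any such set of wells. In the wells with more than 3500 detected genes, Il2ra was found in 9 of 16 WT (56.2%, 29.9 to 80.2) and 5 of 14 PD-1-/- wells (35.7%, 12.8 to 64.9), and Il15ra in 5 and 6 wells. Whether such wells held more than 1 cell was not tested.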

How the results depend on the processing

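No paired analysis was possible because the numbers that the labels share between genotypes count wells, and each genotype is 1 pool. For the same reason no replicate could be left out. Under the alternatives run for each result, the number of receptor genes present in 25% or more of the cells on both plates stayed at 5 and the number past 2-fold at 0, while the number with a higher share in PD-1-/- ranged from 4 to 6 and the number of partner pairs above the product from 4 to 6. The share of cells with both Il2rb and Il2rg stayed within the interval of the main value, at 93.5% to 96.1% in WT and 95.9% to 97.8% in PD-1-/-. The number of receptor genes present more often with CD3 transcripts in both genotypes was 4, and in plate rows A to H it was 2 (Il7r and Il21r); the cause was not tested. Under the others it was 3 or 4, but with other genes in plate rows I to P (Il2ra, Il2rb, Il2rg and Il7r). Il7r was among them under every alternative run, Il21r under all but rows I to P and Il2ra under all but rows A to H, while Il12rb1 was among them only when 1 RPKM or more counted as present. For single genes, 6 of 180 shares left their interval, namely the shares of Il18r1 and Il18rap at 10 RPKM or more, Il2ra in WT rows C to P, and Il2rb in WT after thinning to 100000 reads, which leaves out the shallow cells. Of 120 log2 ratios, 10 changed sign, among Il2ra, Il2rb, Il7r, Il12rb2 and Il18rap, and none reached 2-fold, with a range of -0.93 to 0.87. The number of detected genes limits what is said of Il12rb1, Il21r, Il2ra and Il2rg. Their shares were higher in the cells with the most detected genes than in those with the fewest, and the part of read depth in this was not tested.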

Other observations

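Klrg1, an inhibitory receptor of mature NK cells, was chosen as a further way to divide the cells after its values were seen. Among cells without CD3 transcripts, Il12rb2 was found in 31 of 46 WT cells with Klrg1 (67.4%, 51.98 to 80.5) and 51.4% without (45.01 to 57.8). In PD-1-/- it was found in 43 of 63 cells with Klrg1 (68.3%, 55.3 to 79.4) and 47.3% without (40.5 to 54.1). The intervals were apart in PD-1-/-, as for 0.436% of the 8266 genes in this direction, and overlapped in WT. Detected genes had a median of 2383.5 and 2236 in WT cells with and without Klrg1, and of 2268 and 2237.5 in PD-1-/-. Il18rap, in the same cells, was found in 82.6% against 77.9% in WT and 87.3% against 74.1% in PD-1-/-.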
